A study of Mus musculus with 6 samples.

Results

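The genes described here encode the insulin-like growth factors (Igf1 and Igf2), their signalling receptor (Igf1r) and the binding proteins Igfbp1 to Igfbp7. They were taken as all probe sets whose platform annotation gave exactly 1 gene symbol among these 10, which found 27 of the 45037 non-control probe sets on the array, and all 10 genes, of 18193 with such a probe set, had at least 1. The genes were chosen by results on these same 6 arrays: the MAS5 signals of the knockout comparison had been seen when the family was selected. Their differences between genotypes are a description, and no list-wide statement rests on them.

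RNA of isolated mouse pancreatic islets was measured on 6 Affymetrix arrays, 3 labelled VhlhKO and 3 labelled control. VhlhKO islets came from a conditional knockout made with RIP2-Cre, a Cre recombinase driven by a rat insulin promoter, and the floxed allele Vhlh(fl/fl). The Cre removes the gene in beta cells, so the other cells of these islets keep it. Control islets are labelled only as control, and the sources used here do not say which of both alleles they carry. Arrays 01, 02 and 03 of each genotype came from 26-week male, 20-week female and 18-week male mice, in that order. An array stands for a batch of islets, and the sources used here do not say how many mice it pooled.

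Insulin-like growth factors are small secreted proteins related to insulin that promote growth and survival of cells through the receptor tyrosine kinase Igf1r. Most circulating IGF is held by binding proteins, which carry it, keep it from the receptor or release it locally after proteolysis. The annotation lists Vhlh as Vhl. Its product, the von Hippel-Lindau protein, directs hypoxia-inducible factor (HIF) for degradation when oxygen is present. Igfbp1 is a known HIF target in other cells, and in liver it is repressed by insulin.

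Values are the authors' MAS5 signals, a linear brightness per probe set. A probe set was tested where 3 or more of its 6 signals exceeded the median of their array, and these medians lay between 101.9 and 122.7. In VhlhKO islets Vhl (1434708_at) had signals of 343.6, 358.3 and 467.4, against 456.6, 638.7 and 838.8 in control islets, and the log2 difference was -0.70 (SE 0.32). The groups overlapped slightly, and whether its probes fall inside the deletion was not analysed here. As a check of the labels, 6 genes known to respond to HIF (Ak4, Egln3, Ldha, Slc2a1, Pgk1 and Adm) had 13 tested probe sets, and all 13 were higher on every VhlhKO array than on any control array, beside 3.36% of all tested probe sets. Of these 13, 5 passed the brightness filter only through the VhlhKO arrays and so had to be higher there, which leaves 8. The 6 genes were also chosen with earlier results of these data known, so the check is not independent of them. In the limma fit 4 of 23093 tested probe sets (0.0173%) passed an adjusted p of 0.05, all of them higher in VhlhKO islets and belonging to Ak4, Prelid2 and Pgk1. That count was 0 without VhlhKO 01, without VhlhKO 03 or without control 01, and 1 without control 03. Beta-cell markers were bright: at each gene's brightest probe set their 8 measured genes had signals of at least 1103 on every array. Exocrine RNA was present too. On the arrays numbered 01 and 02 the 9 acinar markers summed to 212100 or more, and the beta-cell markers to 161644 or less.

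Within the IGF family, Igfbp1 differed most between the genotypes, Igfbp4 was about 2.4-fold higher in VhlhKO islets on 3 of its 6 probe sets, and the receptor and Igfbp3 differed little. Of the 27 probe sets 21 were bright enough to test, which covered every gene but Igfbp2. None of the 21 passed the adjusted threshold in limma, where the share over all probe sets was 0.0173%, and 4 had an unadjusted p under 0.05, all higher in VhlhKO islets. Over all tested probe sets that share was 2.17% in either direction and 1.56% for higher. Those 4 were 1 probe set of Igfbp1 and 3 of Igfbp4. The groups did not overlap for 3 of the 21, all higher in VhlhKO islets, beside 3.36% of all tested probe sets (6.35% in either direction), and Igfbp1 among them passed the filter only through the VhlhKO arrays. Counting also the dim ones, 20 of the 27 log2 differences were above 0 and 7 below. The median of the 21 was 0.54, and over all tested probe sets it was -0.015 with 48.0% above 0. Probe sets of one gene read the same transcripts and are not separate evidence, and in whole islets a smaller number of cells of a type cannot be told apart from less RNA per cell.

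**Figure D1:**
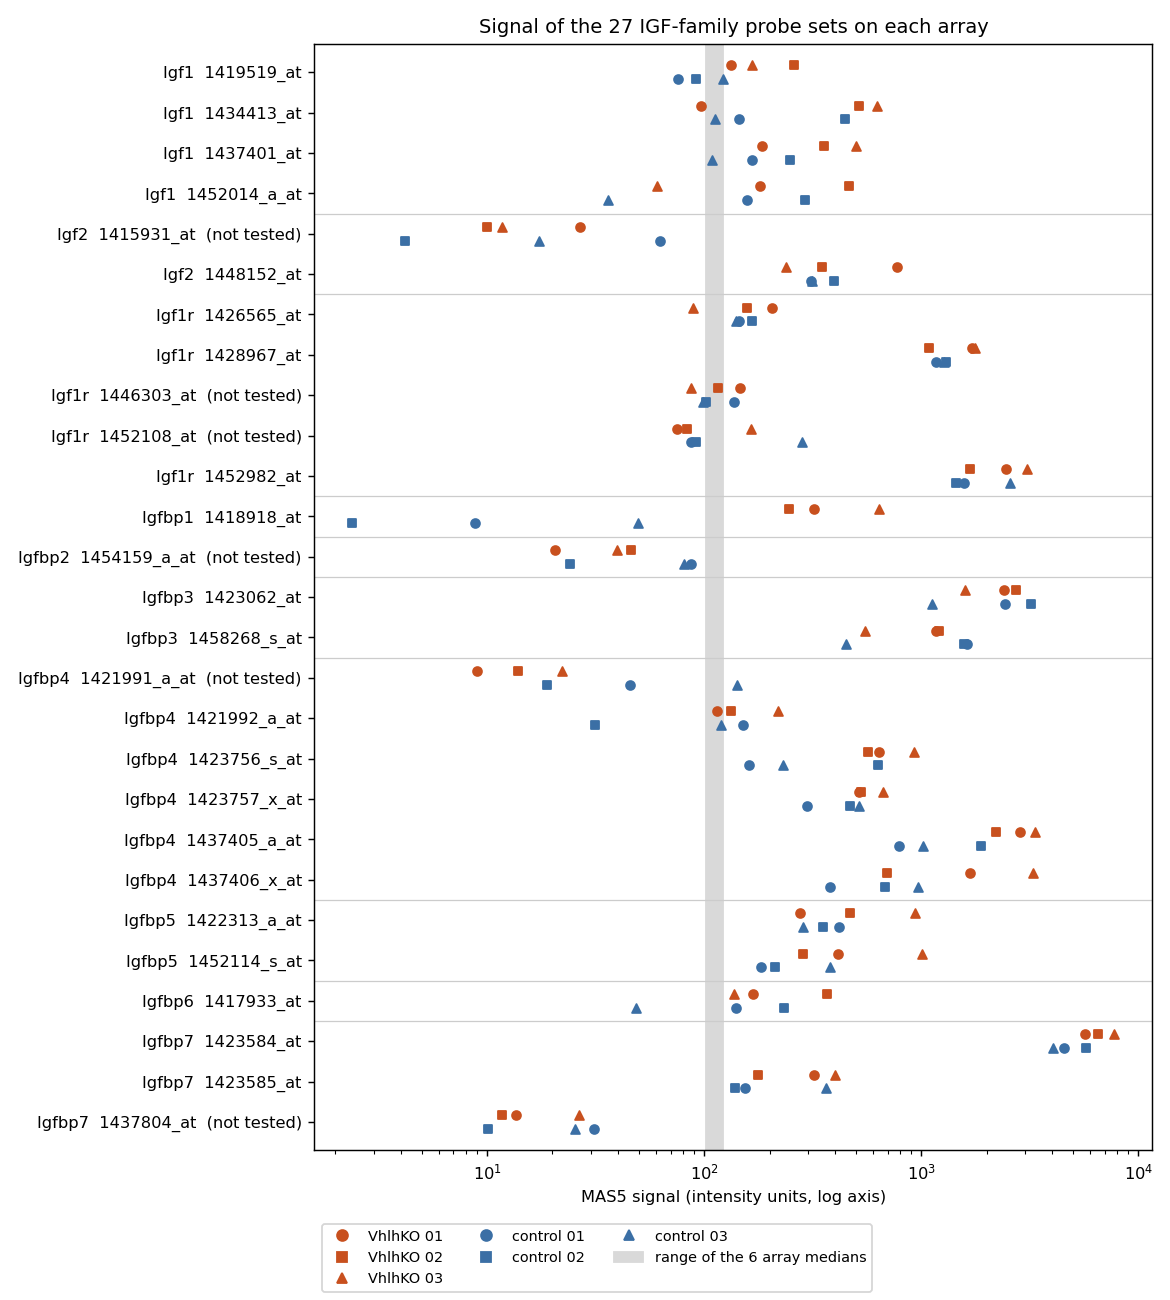
MAS5 signal (intensity units, log axis) of the 27 probe sets on each array, VhlhKO in orange above control in blue, with symbols for arrays 01, 02 and 03 and a grey band for the range of the 6 array medians. The VhlhKO signals of Igfbp1 sit to the right of the band at 245.8 to 640.4 and the control signals to its left at 2.4 to 49.7, while those of Igfbp3 and Igf1r overlap.

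Igf1, the ligand made by stromal and myeloid cells in many tissues, was higher on average in VhlhKO islets on each of its 4 probe sets, with wide intervals. On 1419519_at its signals were 133.5, 260.5 and 165.3 in VhlhKO islets, against 76.1, 91.8 and 122.7 in control islets. These groups did not overlap, although most control signals lay below the array medians, and the log2 difference was 0.92 with a 95% interval from -0.10 to 1.93. On 1437401_at the signals were 184.4, 356.4 and 500.7 in VhlhKO islets, against 165.9, 249.6 and 108.6 in control islets. Here the groups overlapped, and the difference of 0.96 (95% interval -0.09 to 2.00) came mostly from the arrays numbered 03, whose pair differed by 2.21 against 0.15 and 0.51 in the pairs numbered 01 and 02. Without both arrays numbered 03 it was 0.33. The remaining probe sets, 1434413_at and 1452014_a_at, differed by 0.70 and 0.54 with intervals from -0.99 to 2.39 and from -1.47 to 2.55. The first was -0.19 without both arrays numbered 03, and the second was -0.32 without control 03 and -0.18 without VhlhKO 02. On 1452014_a_at the arrays numbered 03 were the dimmest of both genotypes, at 60.6 in VhlhKO and 36.1 in control islets. The 4 Igf1 probe sets thus ordered the arrays differently.

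Igf2, the ligand of fetal growth whose gene lies next to the insulin gene Ins2 on chromosome 7, showed no separation of the genotypes. Its brighter probe set, 1448152_at, had signals of 773.8, 350.4 and 236.9 in VhlhKO islets, against 309.9, 395.1 and 313.3 in control islets. VhlhKO 01 was the highest of the 6 and VhlhKO 03 the lowest, and the difference of 0.25 (95% interval -0.72 to 1.22) was -0.23 without VhlhKO 01. The other probe set, 1415931_at, stayed below the array medians on every array, with signals of 10 to 26.7 in VhlhKO and 4.2 to 62.7 in control islets.

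Igf1r, the receptor that both ligands activate, was read by 5 probe sets, of which 3 were tested. The brightest, 1452982_at, had 2454, 1684 and 3066 in VhlhKO islets, against 1578, 1440 and 2569 in control islets. VhlhKO was higher within each numbered pair, by 0.64, 0.23 and 0.25, but the groups overlapped, because control 03 exceeded VhlhKO 01 and 02. The difference was 0.37 with a 95% interval from -0.40 to 1.14. For 1428967_at and 1426565_at the differences were 0.26 (-0.40 to 0.92) and -0.08 (-1.06 to 0.91). Of the untested probe sets, 1446303_at lay near the array medians and differed by 0.03. The other, 1452108_at, was above the medians only on the arrays numbered 03, at 164.1 in VhlhKO and 280.8 in control islets. Its difference was -0.37, and 0.18 without control 03.

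Igfbp1, a secreted binding protein best known from liver and decidua, was bright in VhlhKO islets and dim in control islets. Its single probe set, 1418918_at, had signals of 319.2, 245.8 and 640.4 in VhlhKO islets, against 8.8, 2.4 and 49.7 in control islets. Every VhlhKO signal lay above the array medians and every control signal below them, so the probe set entered the test through the VhlhKO arrays alone. The mean log2 signal was 8.53 ± 0.71 in VhlhKO and 3.35 ± 2.18 in control islets (SD, n = 3 each), and the log2 difference was 5.17 (SE 1.10, 95% interval 2.69 to 7.66). In the pairs numbered 01, 02 and 03 it was 5.18, 6.65 and 3.69. The size rests on dim control values whose spread exceeded 2 log2 units: with 64 added to every signal before taking log2, the difference was 2.42. In limma the adjusted p was 0.732, and it ranged from 0.174 to 1 over 15 alternatives. A filter on the mean signal left the probe set out of the test. Over alternatives that dropped 1 array the log2 difference stayed between 4.14 and 6.32.

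On the mouse genome Igfbp1 and Igfbp3 are neighbours on chromosome 11, read towards each other from opposite strands, and Igfbp2 and Igfbp5 form a like pair on chromosome 1. The promoters of Igfbp1, Igfbp3 and Igfbp4 are printed because these genes span the range of differences seen: large, near 0 and moderate. Each is the 250 bases before the start site from RefSeq, build GRCm38.p6, written 5′ to 3′ on the gene's strand. Capitals mark matches, on either strand, to the HIF core (ACGTG or GCGTG) and to the core of the insulin response sequence (TGTTTTG or TATTTTG), which FOXO factors are known to bind in the Igfbp1 promoter of rat and human.
Igfbp1, chr11:7197537-7197786, + strand: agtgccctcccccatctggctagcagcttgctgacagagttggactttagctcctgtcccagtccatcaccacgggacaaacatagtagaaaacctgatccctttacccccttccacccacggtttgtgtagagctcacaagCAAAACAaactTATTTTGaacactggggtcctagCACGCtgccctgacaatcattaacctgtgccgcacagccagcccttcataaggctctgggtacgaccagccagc
Igfbp3, chr11:7213924-7214173, - strand: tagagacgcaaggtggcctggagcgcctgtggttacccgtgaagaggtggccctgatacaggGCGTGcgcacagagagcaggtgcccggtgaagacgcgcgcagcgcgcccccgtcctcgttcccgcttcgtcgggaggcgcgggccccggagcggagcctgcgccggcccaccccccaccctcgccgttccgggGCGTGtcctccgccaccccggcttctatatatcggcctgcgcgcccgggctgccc
Igfbp4, chr11:99040994-99041243, + strand: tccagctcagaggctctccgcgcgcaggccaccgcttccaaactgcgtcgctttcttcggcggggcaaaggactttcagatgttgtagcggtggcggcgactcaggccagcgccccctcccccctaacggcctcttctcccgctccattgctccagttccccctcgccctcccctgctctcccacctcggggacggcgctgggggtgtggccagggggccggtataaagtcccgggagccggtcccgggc

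The Igfbp1 window held 1 match to the HIF core, at -74 to -70 from the start site, and 2 to the insulin response core, at -108 to -102 and -97 to -91. The Igfbp3 window held 2 HIF core matches, at -188 to -184 and -55 to -51, and the Igfbp4 window held neither motif. Start sites were listed for all 10 genes, 14 in all, and 7 of the 14 windows held the HIF core, beside 38.6% of the 32851 RefSeq mouse windows of the same length. In the Igfbp2 window with 4 matches, 2 overlap as 1 palindrome. The insulin response core was found in 1 of the 14 windows, that of Igfbp1, beside 9.14% of all windows, and 0.931% of all windows held it more than once. This core is known from the Igfbp1 promoter of rat and human. A match there was therefore likely before the search and does not set the gene apart. A match is a description of the letters and not a bound site, and the windows of Igf1r, Igfbp3 and Igfbp7 also held HIF core matches.

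**Figure D2:**
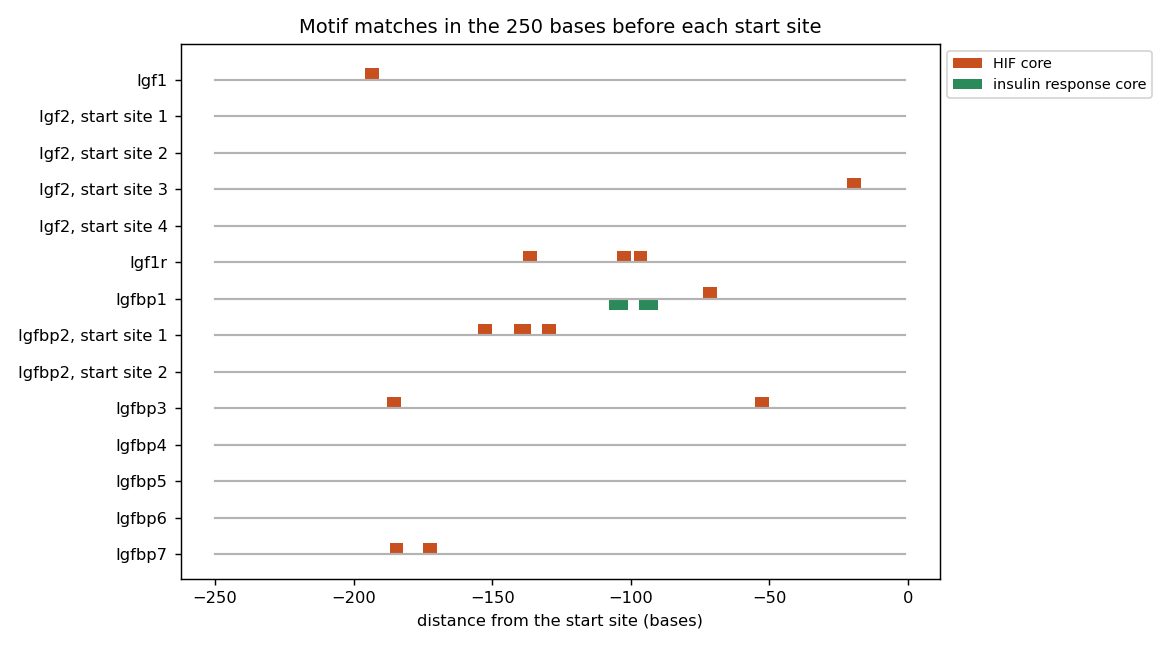
Matches to the HIF core (orange, above the line) and to the insulin response core (green, below it) in the 250 bases before each of the 14 start sites, by distance from the start site in bases. Igfbp1 alone among the 14 carries both motifs, but the insulin response core is a motif known from this promoter in rat and human. The lines without a match are 7, those of Igfbp4, Igfbp5 and Igfbp6 among them.

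Igfbp2, an abundant binding protein of fetal tissues and serum, was too dim to test. Its probe set, 1454159_a_at, had 20.5, 45.9 and 39.5 in VhlhKO islets, against 87.4, 24.2 and 81.0 in control islets. All 6 signals lay below the array medians and the groups overlapped.

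Igfbp3, the main serum carrier of IGF and likewise a known hypoxia-responsive gene in other cells, did not differ between genotypes beyond the spread of the arrays. On 1423062_at its signals were 2416, 2734 and 1590 in VhlhKO islets, against 2440, 3189 and 1120 in control islets. The difference of 0.09 had a 95% interval from -0.85 to 1.03, and that of 1458268_s_at was -0.19 (-1.39 to 1.01). In both genotypes the array numbered 03 was the lowest: on 1458268_s_at it read 550.3 in VhlhKO and 451.1 in control islets, where the others read 1168 and 1206 in VhlhKO and 1620 and 1573 in control islets. The arrays numbered 03 also had the lowest summed signal of 9 acinar markers, 4161 in VhlhKO and 45510 in control islets, against at least 212100 on the other 4. The part of exocrine tissue in the Igfbp3 signal was not tested, and age 18 weeks and number 03 cannot be told apart.

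Igfbp4, a binding protein that mostly restrains IGF action and is cleaved by the protease Pappa, was read by 6 probe sets. On the brightest, 1437405_a_at, its signals were 2860, 2201 and 3347 in VhlhKO islets, against 786.9, 1883 and 1016 in control islets. The groups did not overlap, but the margin was narrow because control 02 came close to VhlhKO 02. The fold was 2.41, or 1.27 in log2 (SE 0.37, 95% interval 0.44 to 2.10), and in limma the adjusted p was 0.99995.

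Other Igfbp4 probe sets gave a similar or smaller difference. It was 1.28 (95% interval 0.18 to 2.38) on 1423756_s_at, 1.31 (0.04 to 2.57) on 1437406_x_at, 0.85 (-0.64 to 2.35) on 1421992_a_at and 0.44 (-0.27 to 1.15) on 1423757_x_at. The sixth, 1421991_a_at, was dim and went the other way, with 9.0, 13.9 and 22.1 in VhlhKO and 45.3, 18.9 and 141.4 in control islets. With the mean of all 6 the difference was 0.55. In the pair numbered 02, the female one, the difference was small on the 4 brighter probe sets, between -0.16 and 0.23, while the pairs numbered 01 and 03 gave 0.37 to 2.14. The dimmer tested probe set, 1421992_a_at, went the other way, with -0.41, 2.09 and 0.88 in the pairs numbered 01, 02 and 03. With 1 female pair, sex, age and array cannot be told apart. On 1423756_s_at control 02 read 632.3, above the 566.6 of VhlhKO 02, while control 01 and 03 read 160.2 and 229.8.

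Igfbp5, a binding protein of mesenchymal cells and matrix, was highest on VhlhKO 03. On 1452114_s_at the signals were 412.2, 284.5 and 1009 in VhlhKO islets, against 182.0, 211.9 and 379.2 in control islets, and on 1422313_a_at they were 275.7, 469.3 and 932.5 in VhlhKO islets, against 417.1, 351.5 and 283.7 in control islets. The groups overlapped on both. The differences were 1.01 (95% interval -0.10 to 2.12) and 0.51 (-0.47 to 1.50), and without VhlhKO 03 they were 0.49 and 0.05. On 1452114_s_at VhlhKO was higher within each pair, by 1.18, 0.42 and 1.41. With the array number as a block its standard error was 0.30 and its unadjusted p in limma 0.0109, against 0.0709 without the block, and the adjusted p was above 0.99 in both fits.

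Igfbp6, which prefers Igf2 over Igf1, had 168.6, 369.5 and 137.5 in VhlhKO islets, against 140.2, 233.2 and 48.7 in control islets, on 1417933_at. The array numbered 02 was the highest and that numbered 03 the lowest in each genotype. VhlhKO was higher within each pair, by 0.27, 0.66 and 1.50, and the difference of 0.81 had a 95% interval from -0.61 to 2.23. It was 0.18 without control 03 and 0.38 without VhlhKO 02.

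Igfbp7, a secreted protein with weak IGF binding that vessels express strongly, had 5700, 6547 and 7748 in VhlhKO islets, against 4519, 5737 and 4025 in control islets, on 1423584_at. VhlhKO was higher within each pair, by 0.33, 0.19 and 0.94. The groups overlapped by a narrow margin, since control 02 exceeded VhlhKO 01, and the difference of 0.49 had a 95% interval from -0.10 to 1.08. The probe set 1423585_at differed by 0.51 (-0.55 to 1.58), and 1437804_at was dim in both genotypes, at 11.7 to 26.6 in VhlhKO and 10.1 to 31.0 in control islets. Of the 21 tested probe sets of the family, 12 were higher in VhlhKO islets within all 3 pairs, beside 12.1% of all tested probe sets. The family was chosen with these differences seen, so the count is a description only. Several of the 12 belong to the same gene, and Igfbp1 among them passed the filter only through the VhlhKO arrays.

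**Figure D3:**
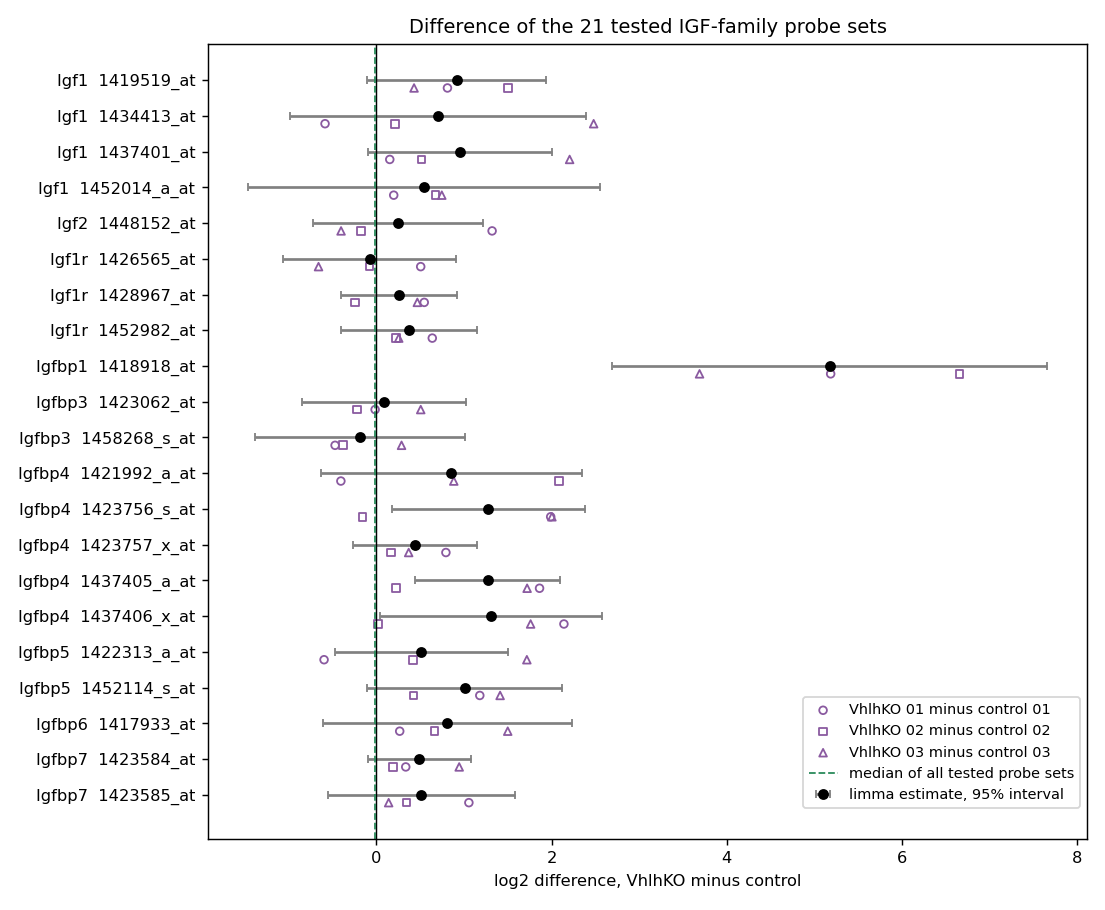
Log2 difference, VhlhKO minus control, of the 21 tested probe sets: black points with bars are the limma estimate and its 95% interval, open symbols the difference within each numbered pair, and the dashed line the median of all tested probe sets at -0.015. Igfbp1 lies at 5.17, the 4 brighter Igfbp4 probe sets between 0.44 and 1.31, and those of Igf1r and Igfbp3 between -0.19 and 0.37.

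Genes that act around the family were read from 3 lists, together 38 genes, of which 4 were not analysed here. Of their 57 tested probe sets none passed in limma after adjustment, and 4 had an unadjusted p under 0.05, all higher in VhlhKO islets, beside 1.56% of all tested probe sets. These were 2 probe sets of Stc2, 1 of Htra1 and 1 of Gab1. Of the Stc2 probe sets, 1449484_at passed the brightness filter only through the VhlhKO arrays and so had to be higher there.

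The carrier partners and proteases of binding proteins had 9 tested probe sets, 6 of them above 0, with a median log2 difference of 0.65. Stc2 encodes stanniocalcin-2, an inhibitor of the protease that cleaves Igfbp4. On 1449484_at it had 197.0, 375.0 and 163.2 in VhlhKO islets, against 7.4, 26.8 and 42.4 in control islets. The groups did not overlap, control signals were below the array medians, and the log2 difference was 3.49 (SE 0.83, limma adjusted p 0.969), or 1.75 with 64 added to each signal. On 1419503_at Stc2 had 264.8, 389.8 and 147.9 in VhlhKO islets, against 50.2, 108.9 and 15.4 in control islets, a difference of 2.50 (SE 0.75). The third Stc2 probe set, 1445186_at, differed by 0.43. Htra1, a serine protease that can cleave binding proteins, had 267.5, 378.3 and 464.3 in VhlhKO islets, against 153.6, 258.9 and 120.3 in control islets, on 1416749_at. These groups did not overlap either, and the difference was 1.10 (SE 0.39). The other tested Htra1 probe set, 1438251_x_at, overlapped and differed by 0.65.

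The receptors and the signal chain had 42 tested probe sets, 19 of them above 0, with a median of -0.07. Gab1, a docking adaptor of receptor tyrosine kinases, had 603.1, 662.7 and 700.2 in VhlhKO islets, against 364.7, 374.9 and 361.3 in control islets, on 1417693_a_at. These groups were well apart, with a difference of 0.83 (SE 0.26), while the second tested Gab1 probe set overlapped at 0.70 and the mean of its probe sets gave 0.19. In the other direction 4 probe sets of this list were lower on every VhlhKO array than on any control array, beside 3% of all tested probe sets, and none had an unadjusted p under 0.05. They were singled out after their values were seen: 1422853_at and 1422854_at of the adaptor Shc1 at -0.50 and -0.44, 1421324_a_at of the kinase Akt2 at -0.70, and 1460326_at of the lipid kinase subunit Pik3ca at -0.27. With the array number as a block, 6 of the 57 probe sets had an unadjusted p under 0.05 in limma, 1 of them lower in VhlhKO islets. Over all tested probe sets that share was 4.2% with the block, against 2.17% without it. The third list, the clearance receptor of Igf2 and Igf2 mRNA-binding proteins, had 6 tested probe sets with a median of 0.03. Its probe set of lowest p was 1433732_x_at of Igf2bp3, at -0.75 (SE 0.42), and its groups overlapped.

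**Figure D4:**
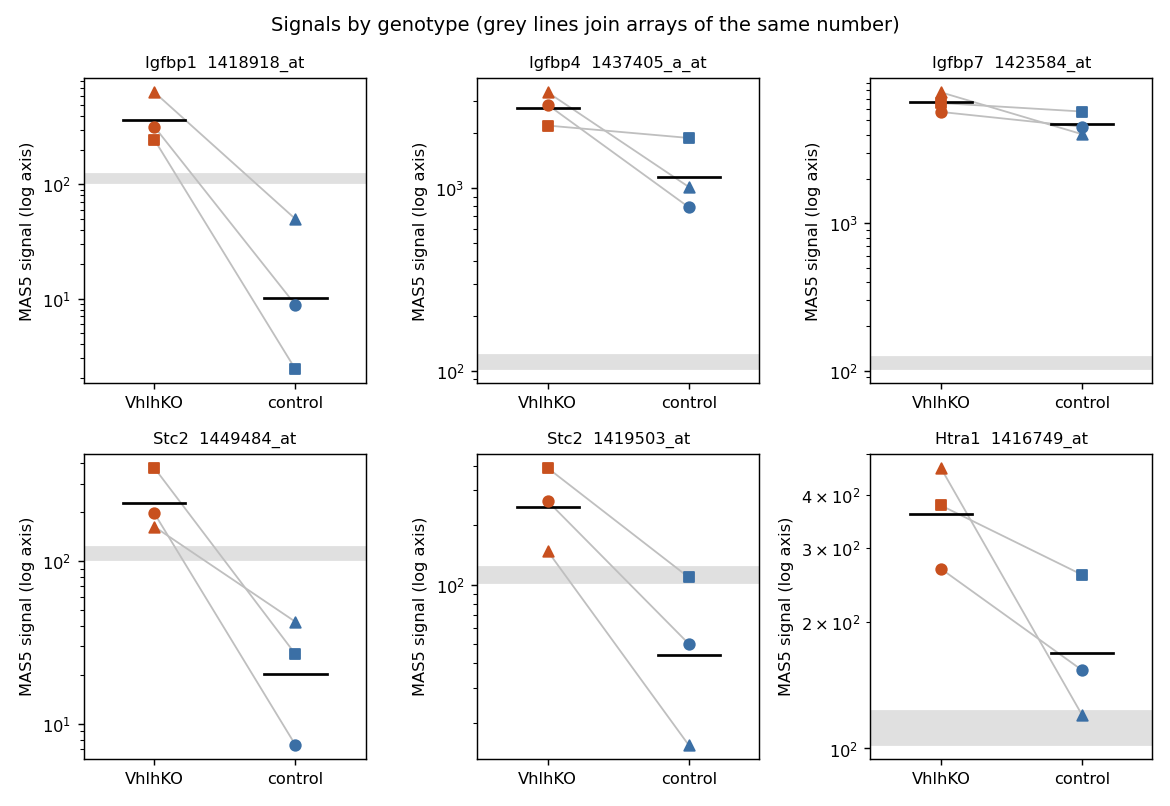
MAS5 signal (log axis) of 6 probe sets by genotype, VhlhKO in orange left of control in blue, with black bars for geometric means, grey lines joining arrays of the same number and a grey band for the range of array medians. Igfbp1 and Stc2 were dim in control islets, at 2.4 to 49.7 and, on 1449484_at, 7.4 to 42.4, whereas Igfbp4 and Igfbp7 were bright in both genotypes.

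Over the 6 arrays, genes whose log2 signal followed a family member most closely were found by Pearson correlation, which here reflects the genotype step and the shared arrays. For Igfbp1 the closest were S100a16 (0.989), Stk24 (0.987), Vsir (0.979), Atox1 (0.977) and Sema4f (0.976). For Igfbp4 (1437405_a_at) they were Jag1 (0.993), Cilp (0.989), Hs3st2 (0.988), Tomm7 (0.983) and Afap1l2 (0.983). For Igf1 (1437401_at) they were Mamdc2 (0.998), Elavl2 (0.992), Calb1 (0.991), Vim (0.990) and Hhex (0.990). With 6 points such values are common: 118, 135 and 213 other tested probe sets exceeded 0.9 for Igfbp1, Igfbp4 and Igf1.

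Markers of cells known to make IGF and its binding proteins were on average higher in VhlhKO islets as well, though none of their probe sets passed the adjusted threshold in limma. The summed signal of 14 endothelial markers, taken at each gene's brightest probe set, was 12619 to 16847 in VhlhKO islets and 9992 to 10704 in control islets, and 13 of the 14 had a positive difference. That of 14 fibroblast and stellate markers was 7896 to 26189 in VhlhKO islets and 4120 to 7774 in control islets, with 14 of 14 positive. That of 8 pericyte and smooth muscle markers was 8976 to 12750 in VhlhKO and 7381 to 8041 in control islets, with 7 of 8 positive. The fibroblast sum was highest on VhlhKO 03, the array on which 14 of the 21 tested family probe sets were also highest: all those of Igfbp1, Igfbp4, Igfbp5 and Igfbp7, and 2 each of Igf1 and Igf1r. The share of all tested probe sets that were highest on this array was not computed, so the count does not set the family apart. Several of the 14 belong to the same gene. Sums for leukocytes were 3127 to 6371 in VhlhKO and 2701 to 5737 in control islets, with 8 of 10 positive. Beta-cell markers summed to 88939 to 161644 in VhlhKO and 110377 to 156039 in control islets, with 3 of 8 positive. Markers of the other endocrine cells summed to 96862 to 132804 in VhlhKO and 98276 to 111844 in control islets, and those of duct cells to 16471 to 33228 in VhlhKO and 15830 to 29424 in control islets. Schwann and neural markers summed to 1124 to 2547 in VhlhKO and 606.9 to 1295 in control islets, with 5 of 6 positive. The median log2 difference of their 6 tested probe sets was 1.30, and 2 of the 6 had an unadjusted p under 0.05 in limma, both higher in VhlhKO islets. Over all tested probe sets that share was 1.56% for higher. The same count was 5 of 17 for fibroblast and stellate markers, with a median of 1.05, and 4 of 20 for endothelial markers. Acinar markers summed to 4161 to 324227 in VhlhKO and 45510 to 259871 in control islets. Of their 9 genes 1 was positive, and the median over 12 tested probe sets was -1.08. This followed the arrays numbered 03 more than the genotype. Relative to the control mean, the mean log2 signal was 0.28, 1.25 and -3.95 on VhlhKO 01, 02 and 03. On control 01, 02 and 03 it was 0.46, 1.13 and -1.59. The part of any of these cell types in the differences of Igf1, Igfbp1, Igfbp4, Igfbp5 and Igfbp7 was not tested.

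**Figure D5:**
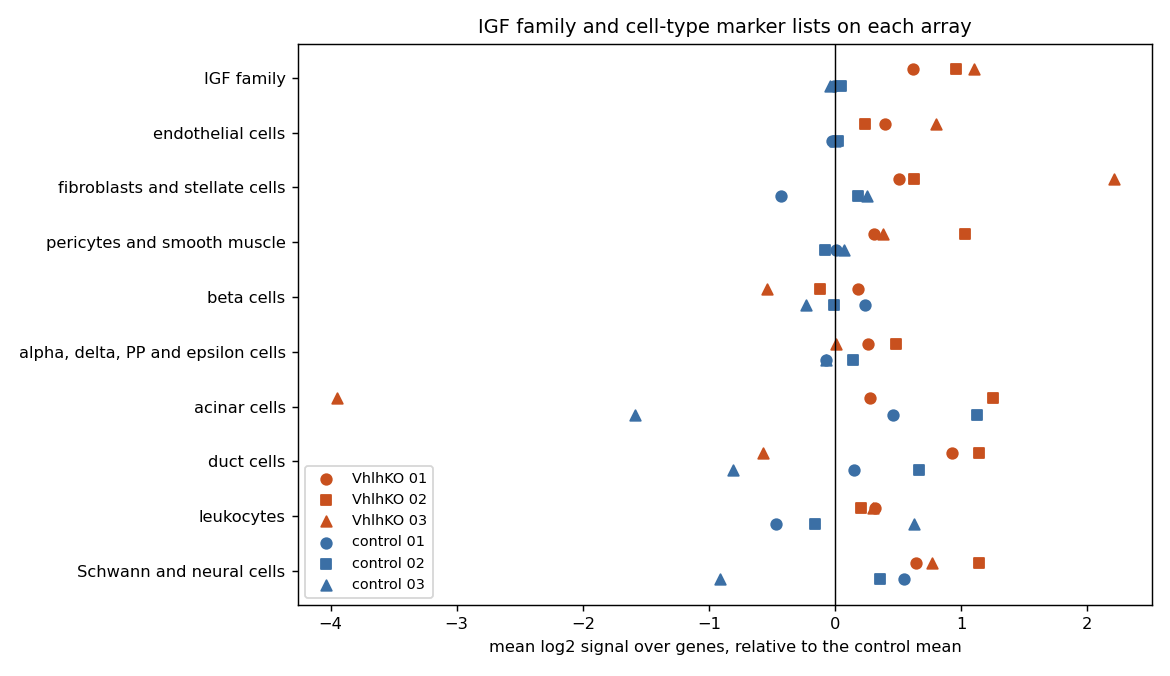
Mean log2 signal over the genes of each list at their brightest probe set, relative to the control mean, for each array, with VhlhKO in orange above control in blue. The IGF family lay at 0.62, 0.96 and 1.10 on VhlhKO 01, 02 and 03, endothelial markers at 0.40, 0.24 and 0.80, and fibroblast and stellate markers at 0.51, 0.63 and 2.21.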

How the data were processed

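The deposited table gives a linear signal intensity for each probe set. The submitters' processing notes name GCOS 1.4 and MAS5 as the software. Per the labels' protocols, RNA was amplified in consecutive cycles before hybridization. The 2% trimmed mean was 500.003 on all 6 arrays, so each array carried a global scaling, and no further normalization was applied. No detection calls or scan data were used here, and precision is limited by how few arrays there are.

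Of 45101 probe sets 64 controls were left out, and 34945 had exactly 1 symbol. Entrez identifiers matched 34741 of these to a RefSeq gene table of GRCm38.p6, which changed 0 symbols. Each probe set was fitted on its own on the log2 scale by limma 3.58.1 (eBayes with an intensity trend) under R 4.3.3, with Benjamini-Hochberg adjustment over the 23093 tested. The fit was run on simulated data whose noise was drawn independently for each array. That run cannot show how the fit behaves where arrays of a pair are correlated. P-values measure the spread between islet batches, and differences of age and sex between the numbered pairs are part of that spread. Deviations from group means correlated by 0.113, 0.395 and 0.375 within the pairs numbered 01, 02 and 03, which also share age and recorded sex. The numbers were therefore read as pairs, although control 01 with VhlhKO 02 reached 0.139. The fit described left the pairing out. Its standard errors, intervals and p-values are unpaired, except where the block is named.

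Members and lists were chosen with earlier results of these data known. All 10 family genes are named. Pathway genes are named if a tested probe set had an unadjusted p under 0.05 (the lowest p where none had), and the similar genes are the 5 of highest correlation for the 3 members of lowest p.

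Alternatives changed the scaling, the added constant, the filter, the choice of probe set, the variance model, the replicate block, the array weights and the arrays used.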

Additional observations from a re-analysis of the deposited data

How the results depend on the processing

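In limma 0 family probe sets passed the adjusted threshold in the fit described, which tested 21, and in each alternative run. At an unadjusted p under 0.05 there were 1 to 6. Likewise 0 of the pathway probe sets passed, with 2 to 7 at that unadjusted p. These counts moved along with those over all probe sets, which were 315 to 971 in the runs that tested 23093. Runs by gene or with another filter tested 8 to 27 of the family. Over all probe sets 4 passed in the fit described, and 2 with 1 probe set per gene, 2 after averaging probe sets by gene, 2 without the intensity trend, 0 without both arrays numbered 03, and 0 to 6 when 1 array was left out. With the replicate block the same 4 passed, and no call on the adjusted p changed. At an unadjusted p under 0.05 the block gave 971 probe sets in place of 502, 5 of the family in place of 4 (Igfbp5 1452114_s_at added) and 6 of the pathway lists in place of 4. In 14 of the 21 tested family probe sets the direction held in every alternative run. The other 7 turned in 15 cases, all for log2 differences of 0.70 or less in size. Without both arrays numbered 03, Igf1 (1434413_at) was at -0.19, Igf1r (1426565_at) at 0.21, Igfbp3 (1423062_at) at -0.12 and Igfbp5 (1422313_a_at) at -0.09. Igfbp3 (1423062_at) was at -0.05 after averaging by gene and at -0.17 with array weights. With 1 array left out, Igf1 (1452014_a_at) ranged from -0.32 to 1.29, Igf2 (1448152_at) from -0.23 to 0.63, Igf1r (1426565_at) from -0.34 to 0.26, Igfbp3 (1423062_at) from -0.35 to 0.41 and Igfbp3 (1458268_s_at) from -0.80 to 0.18. The cause was not tested. Dim control signals limit the size given for Igfbp1 and Stc2.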
